A study of Homo sapiens with 12 samples.

Results

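The 52 genes described here encode the proteins that prepare, open, copy and repackage DNA in S phase, together with the transcription factors E2F1, E2F2 and MYBL2. They were taken by gene symbol from a table of 53361 genes, and all 52 were found. RFC2 had 2 rows with close values, between which the estimation may have divided reads, and the row with the higher mean over the 12 libraries was used. The measurements are RNA sequencing values, as FPKM (fragments scaled by transcript length and by the number of mapped fragments), from hTERT-RPE1, a line of retinal pigment epithelium that telomerase keeps dividing. A first group of 3 libraries came from cells given 0.5 µM reversine for 24 h and collected 48 h after it was washed out. A second group of 3 came from cells given 0.1 µM bafilomycin A1 (BafA1) for 6 h, another 3 from cells given 1 µM MG132 for 24 h, and the controls were 3 libraries from untreated cells of the same line. Reversine inhibits the mitotic kinase Mps1, BafA1 inhibits the proton pump of lysosomes, and MG132 inhibits the proteasome. The labels name no vehicle and no collection time for the controls, and they do not state that replicate libraries are from separate cultures; the p-values then reflect only how these libraries vary, which may be technical. The series' title places the comparison of reversine with control in a study of stress and autophagic degradation in aneuploid cells.

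Column totals ran from 962891 to 2057717 FPKM, and the files give no read counts, so depth and counting intervals are unknown. Trends with transcript GC content differed inside groups. Over 10083 well-expressed genes (mean of at least 5 FPKM, transcript of at least 500 nt), values relative to each gene's mean fell with GC in reversine 1, BafA1 3, MG132 2 and MG132 3, with slopes of −0.39, −0.10, −0.49 and −0.53 log2 units per 10 percentage points, and rose in the other 8 libraries. That restriction was chosen after a first calculation over all 25349 tested genes with an annotation, in which the slopes of the same libraries were −0.20, −0.23, 0.22 and 0.19. Over all annotated genes the sign was thus the opposite for MG132 2 and MG132 3, and also for 7 of the other 8 libraries, with slopes of −0.14 to −0.03, control 3 being the exception at 0.54. Only reversine 1 and BafA1 3 fell with GC in both calculations. Of 7 markers of retinal pigment epithelium, over the 12 libraries RPE65 was at 0.04 to 0.06 FPKM and TYR at 0.38 to 0.62 FPKM, RLBP1 at 0.86 to 1.75 FPKM and BEST1 at 0.87 to 1.78 FPKM, MITF at 9.29 to 20.3 FPKM, and the keratins KRT8 and KRT18 at 262 to 933 and 183 to 629.6 FPKM. The summed level of the 7 was 1280 to 1550 FPKM after reversine, 1120 to 1260 FPKM after BafA1, 458 to 712 FPKM after MG132 and 1220 to 1380 FPKM in controls. That of 4 mesenchyme markers, mostly VIM, was 4700 to 13600 FPKM after reversine, 9680 to 20800 FPKM after BafA1, 7040 to 16800 FPKM after MG132 and 17900 to 26800 FPKM in controls, and that of 4 blood markers was 5.12 to 6.83 FPKM after reversine, 6.52 to 7.98 FPKM after BafA1, 6.91 to 17.9 FPKM after MG132 and 5.56 to 7.24 FPKM in controls. Sums of 3 endothelial markers lay between 4.23 and 6.42 FPKM and of 3 neuronal markers between 9.74 and 19.4 FPKM over all libraries. The part of these markers in the results was not tested.

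As background, an origin of replication is licensed in G1 when ORC, CDC6 and CDT1 load the MCM2 to MCM7 ring onto DNA. In S phase CDC45 and the GINS complex join that ring to form the active helicase, and polymerases alpha, delta and epsilon copy the strands behind it with the PCNA clamp. Genes of this set are classical targets of E2F transcription factors, which are held back by RB and its relatives outside the cycling state and released when cyclin-dependent kinases act in late G1. RNA of the whole culture was measured, so fewer cells in S phase and less of these RNAs per cell cannot be told apart.

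The promoters of these genes were read for E2F-type words. The RefSeq promoter table (GRCh38.p14; 250 bases before to 50 after the start of each gene) held 46 of the 52 genes. The words TTTCCCGC, TTTGGCGC, TTTCGCGC and TTTGCCGC were searched on both strands; TTTGGCGC on one strand overlaps TTTCGCGC on the other in TTTGGCGCGAAA, as in MCM6. At least 1 of these words stood in 23 of the 46 windows, or 50.0%, against 3.31% of 35116 windows of all genes. Among 65 windows of other genes of the same processes, whose lists are described further below, the share was 18.5%. The cell cycle homology word TTTGAA, usual in mitotic genes, stood in 2 of the 46 windows (4.35%, against 15.2% of all windows), and the CCAAT box in 26 (56.5%, against 34.6%). In the 65 windows of other genes of the same processes these shares were 9.23% for TTTGAA and 49.2% for CCAAT, the latter close to that of the 46. The 6 stretches below were chosen after the matches were seen, because their E2F words, in capitals, lie wholly upstream of the start and because the genes stand for different roles: E2F1 itself, MCM6 and CDT1 of licensing, PCNA of the clamp, TYMS of nucleotide supply and POLA2 of the polymerases. They are written 5′ to 3′ on the strand of the gene.
E2F1: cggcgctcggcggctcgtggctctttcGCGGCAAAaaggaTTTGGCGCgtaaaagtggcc
MCM6: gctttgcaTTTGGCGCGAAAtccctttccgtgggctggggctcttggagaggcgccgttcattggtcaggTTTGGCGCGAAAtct
CDT1: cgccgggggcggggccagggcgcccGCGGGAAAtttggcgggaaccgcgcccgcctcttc
PCNA: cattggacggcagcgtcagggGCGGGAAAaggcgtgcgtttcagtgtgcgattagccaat
TYMS: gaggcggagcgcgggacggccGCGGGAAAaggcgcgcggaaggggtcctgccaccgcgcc
POLA2: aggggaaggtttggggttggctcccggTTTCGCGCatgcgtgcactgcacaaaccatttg
In GRCh38.p14 they lie at chr20:33686386-33686445 (- strand) for E2F1, chr2:135876519-135876603 (- strand) for MCM6, chr16:88803729-88803788 (+ strand) for CDT1, chr20:5126643-5126702 (- strand) for PCNA, chr18:657593-657652 (+ strand) for TYMS and chr11:65261882-65261941 (+ strand) for POLA2. The stretch of MCM6 holds the pair of overlapping words at both of its ends, and that of E2F1 holds a word on each strand. A word is a match of letters, not a shown binding site. After reversine, the 23 genes with a word had a median log2 difference of −1.45 from control and the 23 without one −1.57; after MG132 the medians were −1.45 and −1.78. This division by word was also made after the data were seen, and its differences were not tested.

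All of the 52 genes were lower after reversine than in controls by their log2 difference, and 31 of them fell past the threshold of an adjusted p under 0.05 (limma on log2(FPKM + 1), Benjamini-Hochberg adjustment over 30712 genes). Among all genes tested, 1.29% were called lower and 0.801% higher; of the 52, none was called higher and 21 did not pass. The median log2 difference was −1.46, against 0.09 over all genes, and 40 genes averaged under 50% of their control mean. A log2 difference of −1 or lower was found for 39 of the 52 and for 1080 of the 30712 genes tested. In 51 of the 52 genes all 3 reversine libraries lay below all 3 controls, against 10.1% of the genes tested. The exception was GINS3. The signs of all 52 were the same under all of the alternatives run. Among these was the fit without reversine 1, BafA1 3, MG132 2 and MG132 3, in which the median was −1.39, against 0.12 over all genes. The spread behind these calls was shared by the 4 groups, and a fit of reversine and control alone called 1 gene, RRM2, and gave the other 30 an adjusted p of 0.0621 to 0.264. The count was 20 without control 1 and 19 without control 3, where 0.804% and 0.811% of all genes were called.

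After MG132, 38 of the 52 genes fell, none was called higher and 14 did not pass, where 7.67% of all genes tested were called lower and 7.14% higher. Their median log2 difference was −1.55, against 0.04 over all genes, and 23 of them averaged under 25% of control, against 14 after reversine. Large falls were also more common among all genes after MG132. A log2 difference of −1 or lower was found for 7279 of the 30712 genes tested, against 1080 after reversine. Of the 52 genes, 39 had one after MG132 and 39 after reversine. The 3 MG132 libraries lay below the 3 controls in 45 genes (13.5% of all genes tested). The log2 difference was above 0 for 4 genes, ORC6, GINS3, PRIM2 and POLE2, none of them called. In MG132 1, 51 of the 52 genes lay below the lowest control and none above the highest. In MG132 2 and MG132 3, 46 and 45 lay below it, while ORC6, PRIM2, POLE2 and RRM1 lay above the highest control in both and GINS3 in MG132 3. Of all genes tested, 21.6%, 22.6% and 21.4% lay below the lowest control in MG132 1, 2 and 3, and 31.5%, 44.9% and 45.9% above the highest. The fit that left out reversine 1, BafA1 3, MG132 2 and MG132 3 gave a median of −1.68, against 0.117 over all genes. MG132 1 was then the only MG132 library, assumed to vary like the other groups.

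After BafA1 the differences were smaller. No gene was called by limma (0.0619% of all genes tested were called lower and 0.202% higher), while 18 of the 52 had an unadjusted p under 0.05, or 34.6%, against 7.12% of all genes tested. Weighting the libraries by their fit called 14 of the 52 with default weights, which did not converge (4.4% of all genes), and 10 with gene-by-gene weights, added after that was seen (2% of all genes). The log2 difference was below 0 in 51 genes, with a median of −0.43 against 0.14 over all genes. All 3 BafA1 libraries lay below all 3 controls in 33 genes, against 7.42% of all genes tested. Gene means after BafA1 ran from 44.8% of control for CHAF1B to 99.9% for POLA1, with a median of 73.7%. In BafA1 3, 37 genes lay below the lowest control and 8 above the highest, while BafA1 1 and BafA1 2 had 44 and 48 below and none above. Of all genes tested, 16.1% lay below and 33.1% above in BafA1 3, 15.4% and 29.1% in BafA1 1, and 16.5% and 29.8% in BafA1 2.

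**Figure D1:**
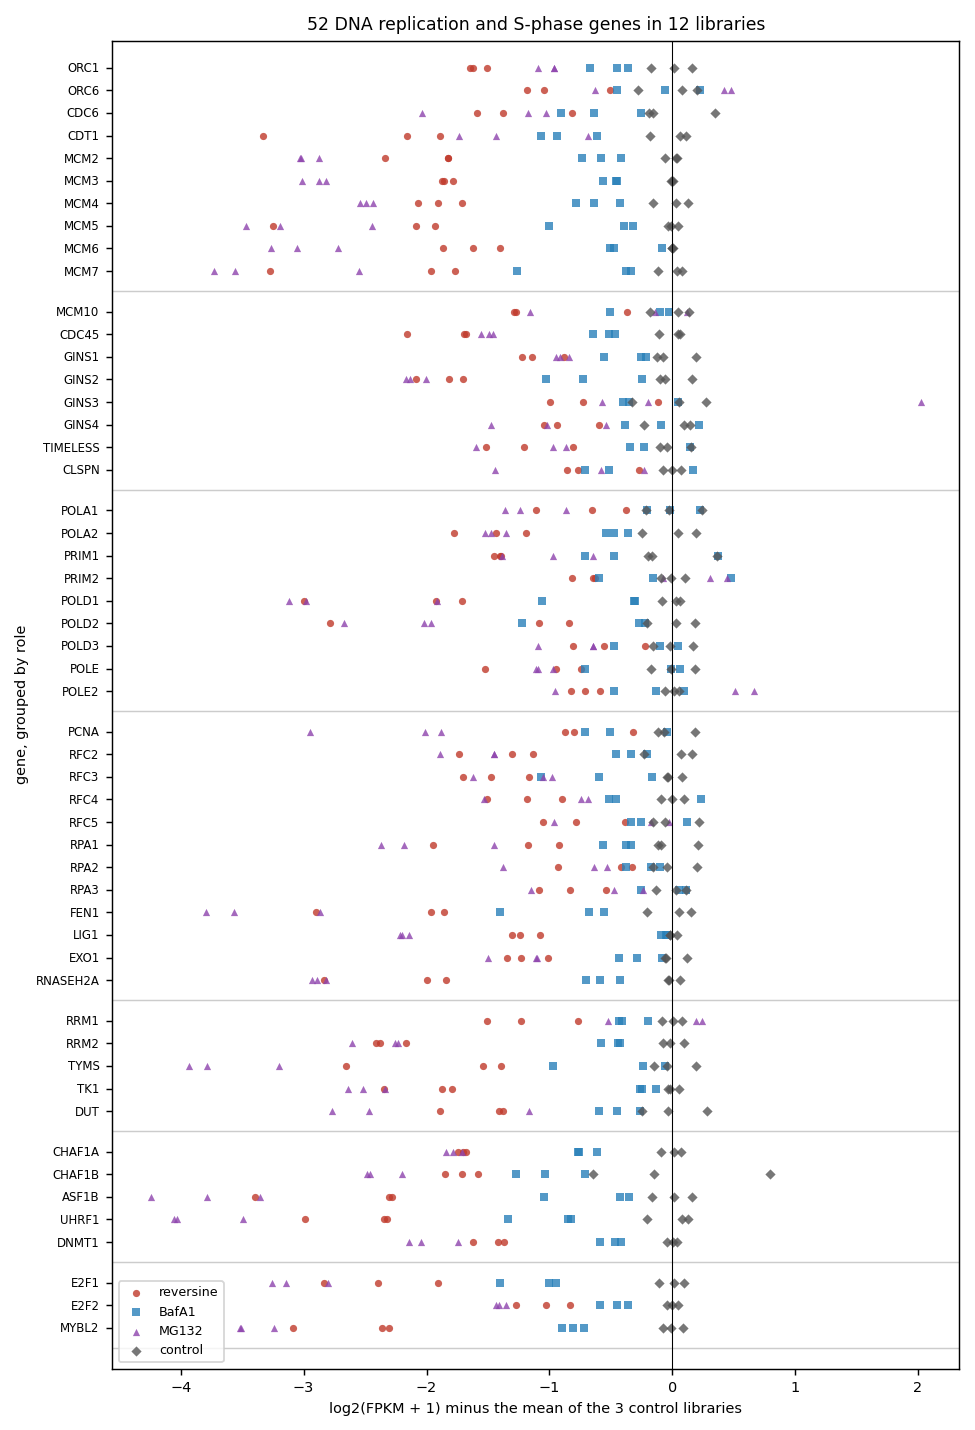
Each point is 1 library, placed by its log2(FPKM + 1) minus the mean of the 3 controls for that gene; genes run down the page by role (origin licensing, helicase and fork, polymerases, clamp and flap processing, nucleotide supply, chromatin assembly, transcription factors). Reversine points (circles) lie below 0 for all 52 genes, MG132 points (triangles) lie lowest for most, and BafA1 points (squares) lie nearer to the controls (diamonds) for most.

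The genes differed within a group by their GC content, a comparison added after the values were seen. Over the 50 genes with a transcript GC content (GENCODE v29; UHRF1 and the RFC2 row had none), reversine 1 minus the mean of reversine 2 and 3 fell with GC (Pearson r −0.665, Spearman rho −0.667). The same held for BafA1 3 against BafA1 1 and 2 (r −0.682) and for MG132 2 and 3 against MG132 1 (r −0.704), but not for control 3 against controls 1 and 2 (r 0.0901). These are correlations across genes that share libraries, given as a description. Genes at or above the median GC of 50.5% had a median log2 difference between reversine 1 and the mean of reversine 2 and 3 of −0.52, and genes below it one of 0.30. The control libraries varied least: the median coefficient of variation of the 52 genes was 22.4% after reversine, 17.8% after BafA1, 25.9% after MG132 and 10.3% in controls.

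**Figure D2:**
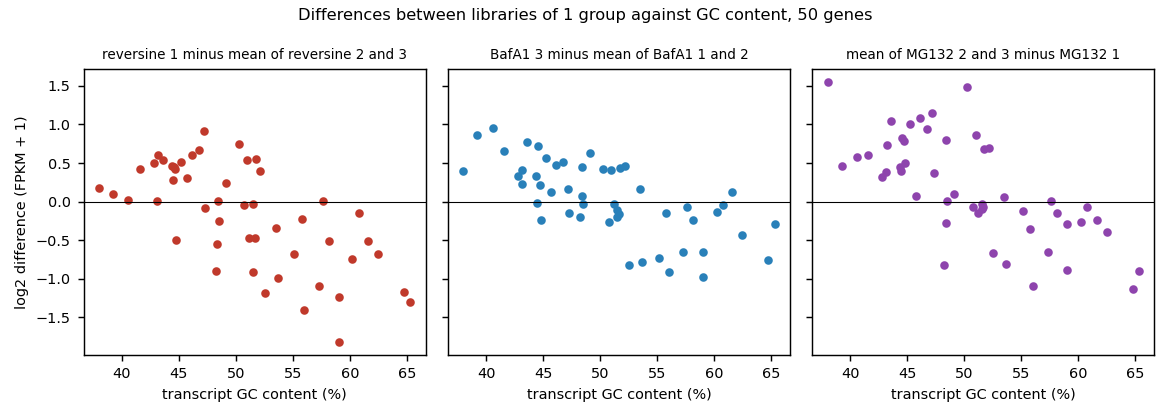
Each point is 1 of 50 genes; the horizontal axis is transcript GC content in percent and the vertical axis the log2 difference of FPKM + 1 between libraries of the same group. In all 3 panels points fall from left to right: most genes low in GC sit above 0 and most genes high in GC below it.

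In untreated cells the 52 genes had a median of 42.7 FPKM (control means), against 8.39 FPKM over all genes tested. POLD2 was the highest at 803 ± 108 FPKM (mean ± SD, n = 3), followed by MCM7 at 554 ± 38.1 FPKM. TYMS at 352 ± 43.4 FPKM and RRM2 at 329 ± 19.6 FPKM came next and did not differ beyond their spread. At the low end were CLSPN at 5.67 ± 0.335 FPKM and E2F2 at 3.04 ± 0.13 FPKM. For genes at such levels the added 1 FPKM makes a log2 difference smaller than the ratio of means.

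Most origin licensing genes were lower after reversine and after MG132. Of the 10 genes, 8 fell after reversine and 2, ORC6 and CDC6, did not pass (median log2 difference −1.87); 8 fell after MG132 and 2, ORC6 and CDT1, did not pass (median −2.69); none was called after BafA1 (median −0.58). The subunits of the MCM2 to MCM7 ring, the core of the replicative helicase, had group means of 19.8% to 30.5% of control in reversine cells, 65.3% to 78.2% in BafA1 cells and 9.89% to 17.4% in MG132 cells. MCM2 had 17.6, 25.7 and 25.6 FPKM after reversine, 69.4, 62.2 and 55.5 FPKM after BafA1, 11.8, 10.6 and 10.5 FPKM after MG132 and 94.9, 89.2 and 95.6 FPKM in controls. MCM3 had 24.2, 23.9 and 25.4 FPKM after reversine, 65.2, 65.6 and 60.7 FPKM after BafA1, 11.4, 10.3 and 11.9 FPKM after MG132 and 89.7, 90.7 and 90.0 FPKM in controls. For both genes the groups did not overlap, and their order from low to high was MG132, reversine, BafA1 and control. MCM2 fell by 1.99 ± 0.16 on the log2 scale (SE) after reversine (limma adjusted p 0.000569) and fell by 2.98 ± 0.16 after MG132 (1.41e-05). MCM3 fell by 1.84 ± 0.11 on the log2 scale (SE) after reversine (limma adjusted p 0.00013) and fell by 2.90 ± 0.11 after MG132 (2.29e-06). After BafA1 the log2 differences were −0.58 ± 0.16 (SE; limma adjusted p 0.384) for MCM2 and −0.49 ± 0.11 (SE; limma adjusted p 0.172) for MCM3.

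MCM5 had 25.3, 57.9 and 64.6 FPKM after reversine, 199, 189 and 123 FPKM after BafA1, 44.8, 26.3 and 21.6 FPKM after MG132 and 257, 247 and 243 FPKM in controls. MCM7 had 56.2, 141 and 162 FPKM after reversine, 437, 426 and 229 FPKM after BafA1, 93.5, 46.1 and 40.7 FPKM after MG132 and 584, 511 and 567 FPKM in controls. In both genes reversine 1 and BafA1 3 were the lowest libraries of their groups, and MG132 1 was the highest of the MG132 libraries. MCM5 fell by 2.42 ± 0.38 on the log2 scale (SE) after reversine (limma adjusted p 0.0114) and fell by 3.04 ± 0.38 after MG132 (0.000824). MCM7 fell by 2.34 ± 0.45 on the log2 scale (SE) after reversine (limma adjusted p 0.0306) and fell by 3.28 ± 0.45 after MG132 (0.00139). MCM7 was not called in the reversine comparison under 7 of 15 alternatives, among them the fits without control 1, 2 or 3, and MCM5 was lost without control 1 or control 3 and in the fit of 2 groups (limma adjusted p up to 0.17 and 0.13). MCM4 had 54.8, 61.4 and 70.2 FPKM after reversine, 173, 135 and 149 FPKM after BafA1, 40.5, 42.2 and 39.1 FPKM after MG132 and 237, 208 and 255 FPKM in controls. MCM6 had 10.0, 8.34 and 11.8 FPKM after reversine, 23.5, 22.9 and 31 FPKM after BafA1, 2.53, 3.09 and 4.16 FPKM after MG132 and 32.8, 32.9 and 33.1 FPKM in controls. These remaining subunits showed the same order of groups. MCM4 fell by 1.90 ± 0.13 on the log2 scale (SE) after reversine (limma adjusted p 0.000383) and fell by 2.49 ± 0.13 after MG132 (1.14e-05). MCM6 fell by 1.63 ± 0.21 on the log2 scale (SE) after reversine (limma adjusted p 0.00459) and fell by 3.01 ± 0.21 after MG132 (3.95e-05).

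**Figure D3:**
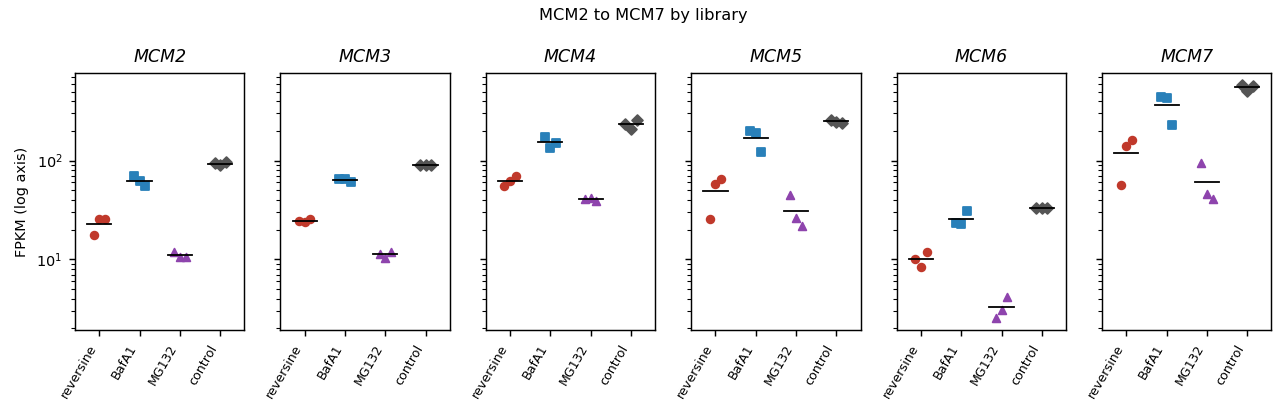
FPKM of the 6 subunits of the MCM ring on a log axis, 1 point per library and a line at each group mean. Every reversine and MG132 library lies below every control for all 6 genes; BafA1 libraries lie below the controls and above the reversine libraries.

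CDT1 and CDC6 load the ring onto DNA. CDT1 had 7.97, 19.2 and 23.4 FPKM after reversine, 58.2, 46 and 42 FPKM after BafA1, 55.2, 26.1 and 32.4 FPKM after MG132 and 93.4, 78.9 and 96.8 FPKM in controls. CDC6 had 14.9, 9.77 and 8.31 FPKM after reversine, 16.9, 13.9 and 22.4 FPKM after BafA1, 5.8, 12.7 and 11.4 FPKM after MG132 and 24, 34.5 and 23.5 FPKM in controls. CDT1 fell by 2.46 ± 0.38 on the log2 scale (SE) after reversine (limma adjusted p 0.0115) and was not called after MG132, at −1.28 ± 0.38 (SE; limma adjusted p 0.0534). CDC6 was the reverse case, with −1.26 ± 0.33 (SE; limma adjusted p 0.11) after reversine and a called fall of 1.41 ± 0.33 after MG132 (limma adjusted p 0.0209). All reversine and MG132 libraries lay below all controls for both genes. A call in only 1 comparison is no test of a difference between the treatments, and between reversine and MG132 the log2 difference was −1.18 ± 0.38 (SE; limma adjusted p 0.0916) for CDT1 and 0.15 ± 0.33 (SE; limma adjusted p 0.72) for CDC6. The CDT1 call after reversine was lost without control 1 or control 3, and the CDC6 call after MG132 without any 1 of the controls.

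ORC1 had 2.32, 2.6 and 2.26 FPKM after reversine, 6.5, 6.95 and 5.42 FPKM after BafA1, 4.25, 3.81 and 4.24 FPKM after MG132 and 9.32, 10.4 and 8.09 FPKM in controls. ORC6 had 15.3, 9.21 and 10.3 FPKM after reversine, 16, 21.3 and 26.1 FPKM after BafA1, 14, 30.0 and 31.3 FPKM after MG132 and 23.5, 25.7 and 18.1 FPKM in controls. ORC1, the large ATPase subunit of the origin recognition complex, fell in both comparisons (−1.59 ± 0.19 SE, limma adjusted p 0.00292 after reversine and −1.01 ± 0.19 SE, limma adjusted p 0.00678 after MG132). ORC6, its smallest subunit, was called in neither, and its level in MG132 2 and 3 was above all controls while MG132 1 was below them all. The difference of ORC6 from control was 0.09 ± 0.34 (SE; limma adjusted p 0.913) after MG132.

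Of the 8 genes that activate the helicase or travel with the fork, 3 fell after reversine and 5 after MG132 (medians −1.03 and −0.95), with none called after BafA1 (median −0.29). CDC45 had 10.3, 14.8 and 14.6 FPKM after reversine, 35.4, 34.2 and 31.2 FPKM after BafA1, 17.4, 16.9 and 16.2 FPKM after MG132 and 51.1, 45.7 and 51.6 FPKM in controls. GINS2 had 3.53, 3.2 and 2.49 FPKM after reversine, 6.23, 7.95 and 11.4 FPKM after BafA1, 2.3, 2.37 and 2.69 FPKM after MG132 and 12.8, 15.5 and 13.2 FPKM in controls. CDC45 and the GINS subunits join the MCM ring in the working helicase, and neither of these genes overlapped between controls and either of reversine or MG132. CDC45 fell by 1.84 ± 0.16 on the log2 scale (SE) after reversine (limma adjusted p 0.000747) and fell by 1.50 ± 0.16 after MG132 (0.000357). GINS2 fell by 1.87 ± 0.24 on the log2 scale (SE) after reversine (limma adjusted p 0.00459) and fell by 2.10 ± 0.24 after MG132 (0.000543). GINS1 also fell after both (−1.08 ± 0.20 SE, limma adjusted p 0.0269 after reversine and −0.90 ± 0.20 SE, limma adjusted p 0.0167 after MG132), while GINS4, of the GINS complex, and TIMELESS, of the fork protection complex, were called after MG132 alone (0.0405 and 0.0187; after reversine 0.215 and 0.061, all limma adjusted p). The GINS1 call was lost under 8 of 15 alternatives after reversine and 4 of 15 after MG132, and the GINS4 and TIMELESS calls after MG132 under 7 of 15 and 3 of 15. Between reversine and MG132 themselves the differences of GINS4 and TIMELESS were 0.15 ± 0.28 (SE; limma adjusted p 0.672) and −0.03 ± 0.26 (SE; limma adjusted p 0.921).

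GINS3 had 14.7, 9.3 and 7.54 FPKM after reversine, 12.3, 11.9 and 16.6 FPKM after BafA1, 10.4, 13.8 and 68.2 FPKM after MG132 and 12.6, 16.7 and 19.6 FPKM in controls. MG132 3 stood far above the other 11 libraries, and GINS3 was called in no comparison with control (0.42 ± 0.59 SE, limma adjusted p 0.612 after MG132). MCM10, a helicase activator, and CLSPN, a mediator of checkpoint signalling at stalled forks, were also not called, with log2 differences of −0.98 and −0.63 after reversine and of −0.39 and −0.75 after MG132. Their levels in reversine 1 were 5.08 and 4.52 FPKM against 2.25 and 2.68 FPKM in reversine 2.

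Of 9 polymerase and primase genes, POLA2 and POLD1 fell after reversine (median of the group −1.07), POLA1, POLA2, POLD1, POLD2 and POLE fell after MG132 (median −1.06), and none was called after BafA1 (median −0.22). POLD1 is the catalytic subunit of polymerase delta, and POLA2 the regulatory subunit of polymerase alpha. POLD1 had 8.08, 18.1 and 21 FPKM after reversine, 57.7, 57.1 and 33.6 FPKM after BafA1, 18.2, 8.17 and 7.34 FPKM after MG132 and 74.4, 67.1 and 72.8 FPKM in controls. POLA2 had 16.4, 21 and 25.1 FPKM after reversine, 40.1, 45.4 and 41.8 FPKM after BafA1, 22.4, 19.7 and 20.5 FPKM after MG132 and 60.7, 67.1 and 49.4 FPKM in controls. POLD1 fell by 2.21 ± 0.41 on the log2 scale (SE) after reversine (limma adjusted p 0.0267) and fell by 2.67 ± 0.41 after MG132 (0.00266). POLA2 fell by 1.47 ± 0.18 on the log2 scale (SE) after reversine (limma adjusted p 0.00342) and fell by 1.45 ± 0.18 after MG132 (0.000813). No reversine or MG132 library reached the lowest control in either gene, although the POLD1 call after reversine was lost under 7 of 15 alternatives (limma adjusted p up to 0.151). The calls after MG132 were lost under 6 of 15 alternatives for POLA1, 6 of 15 for POLE and 3 of 15 for POLD2.

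POLA1 had 4.49, 3.53 and 2.3 FPKM after reversine, 5.19, 6.03 and 7.33 FPKM after BafA1, 1.77, 2.92 and 2.02 FPKM after MG132 and 5.13, 5.99 and 7.44 FPKM in controls. PRIM1 had 6.83, 6.54 and 6.88 FPKM after reversine, 13.9, 11.7 and 25.7 FPKM after BafA1, 6.92, 12.2 and 9.53 FPKM after MG132 and 17, 25.5 and 17.5 FPKM in controls. POLE2 had 6.21, 5.14 and 5.64 FPKM after reversine, 6.79, 8.9 and 10.6 FPKM after BafA1, 4.58, 16.2 and 14.5 FPKM after MG132 and 9.93, 10.2 and 9.38 FPKM in controls. POLA1, the catalytic subunit of polymerase alpha, was not called after reversine (−0.71 ± 0.26 SE, limma adjusted p 0.278) and fell after MG132 (−1.15 ± 0.26 SE, limma adjusted p 0.0166). PRIM1, the catalytic primase subunit, lay below the controls in all libraries of both treatments without a call (0.0604 and 0.0643, limma adjusted p). POLE2 and PRIM2 were not lower than control after MG132 on average (0.07 ± 0.39 SE, limma adjusted p 0.964 and 0.23 ± 0.28 SE, limma adjusted p 0.54), with MG132 1 below the controls for POLE2 and MG132 2 and 3 above them for both. POLD3 had 9.84, 6.24 and 7.63 FPKM after reversine, 10.8, 8.11 and 12.1 FPKM after BafA1, 4.93, 7.09 and 7.09 FPKM after MG132 and 10.4, 13.3 and 11.6 FPKM in controls. POLD3, an accessory subunit of polymerase delta, had the smallest difference of the group after reversine (−0.53 ± 0.24 SE, limma adjusted p 0.439) with no overlap between reversine and control. POLD2 and POLE fell after MG132 (−2.22 ± 0.49 SE, limma adjusted p 0.0151 and −1.06 ± 0.25 SE, limma adjusted p 0.0224) and were not called after reversine (−1.57 ± 0.49 SE, limma adjusted p 0.187 and −1.07 ± 0.25 SE, limma adjusted p 0.0752).

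The group of the clamp, its loader, single-strand binding and flap processing held 12 genes, of which 6 fell after reversine and 8 after MG132 (medians −1.20 and −1.42; BafA1 median −0.30, none called). PCNA had 91.7, 62.3 and 65.7 FPKM after reversine, 80.4, 69.8 and 111 FPKM after BafA1, 14, 30.4 and 27.8 FPKM after MG132 and 106, 131 and 109.8 FPKM in controls. For PCNA, the sliding clamp, all MG132 libraries were below all reversine libraries, and all reversine libraries below all controls. The difference from control was −0.66 ± 0.30 (SE; limma adjusted p 0.434) after reversine, not called, and −2.28 ± 0.30 (SE; limma adjusted p 0.00113) after MG132. Set against each other, reversine was higher than MG132 by 1.62 ± 0.30 (SE; limma adjusted p 0.0123). FEN1 had 24.8, 48.4 and 52.1 FPKM after reversine, 129.8, 119 and 71.5 FPKM after BafA1, 25.4, 15.3 and 12.9 FPKM after MG132 and 198, 166 and 213 FPKM in controls. FEN1 fell by 2.24 ± 0.35 on the log2 scale (SE) after reversine (limma adjusted p 0.0118) and fell by 3.41 ± 0.35 after MG132 (0.000297). FEN1 removes the flaps of Okazaki fragments, and LIG1 seals them. LIG1 had 10.2, 12.1 and 10.7 FPKM after reversine, 25.6, 25.7 and 24.9 FPKM after BafA1, 5.25, 4.92 and 4.99 FPKM after MG132 and 27.3, 26.2 and 26.1 FPKM in controls. LIG1 fell by 1.21 ± 0.14 on the log2 scale (SE) after reversine (limma adjusted p 0.00286) and fell by 2.19 ± 0.14 after MG132 (2.57e-05).

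RNASEH2A, the catalytic subunit of RNase H2, fell to 24.9 ± 8.54 FPKM after reversine and 14.7 ± 0.65 FPKM after MG132, against 115 ± 4.6 FPKM in controls (mean ± SD, n = 3 each; limma adjusted p 0.00161 and 7.99e-05). EXO1, a 5′ exonuclease, fell in both comparisons as well (−1.20 ± 0.20 SE, limma adjusted p 0.0138 and −1.24 ± 0.20 SE, limma adjusted p 0.00308). RFC3 had 6.67, 5.21 and 4.28 FPKM after reversine, 10.4, 7.22 and 14.3 FPKM after BafA1, 4.59, 7.74 and 7.32 FPKM after MG132 and 15.8, 17.2 and 15.7 FPKM in controls. RFC3 fell by 1.45 ± 0.29 on the log2 scale (SE) after reversine (limma adjusted p 0.0356) and fell by 1.22 ± 0.29 after MG132 (0.0206). Of the other clamp loader genes RFC2 fell in both comparisons, with the caution on its 2 rows given above, RFC4 missed the threshold in both (0.0824 after reversine and 0.0505 after MG132, limma adjusted p), and RFC5 was called in neither. The RFC3 call was lost without any 1 of the controls in both comparisons, under 7 of 15 alternatives after reversine and 3 of 15 after MG132, and the EXO1 call after reversine under 5 of 15.

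RPA1 had 43.7, 75.5 and 90.1 FPKM after reversine, 136, 132 and 116 FPKM after BafA1, 62.1, 37 and 32.3 FPKM after MG132 and 161, 158 and 199 FPKM in controls. RPA2 had 23.9, 36.8 and 34.6 FPKM after reversine, 35.6, 43.2 and 41.1 FPKM after BafA1, 17.3, 29.5 and 31.8 FPKM after MG132 and 41.6, 53.5 and 45.2 FPKM in controls. RPA3 had 15.4, 10.3 and 12.4 FPKM after reversine, 23.8, 19 and 24.9 FPKM after BafA1, 9.76, 16.1 and 19.3 FPKM after MG132 and 23.3, 20.7 and 24.7 FPKM in controls. These genes encode the 3 subunits of the single-strand binding protein RPA, and the largest, RPA1, fell after MG132 (log2 difference −2.0 ± 0.30 SE, limma adjusted p 0.00215). RPA1 missed the threshold after reversine (−1.35 ± 0.30 SE, limma adjusted p 0.0563), and RPA2 and RPA3 were called in neither comparison (0.191 to 0.432 after reversine and 0.051 to 0.108 after MG132, limma adjusted p). RPA2 averaged 68.0% of control after reversine, the highest share of the 52 genes.

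Among nucleotide supply genes, 4 of 5 fell after reversine (median −1.86; DUT did not pass) and 4 of 5 after MG132 (median −2.37; RRM1 did not pass), and none was called after BafA1 (median −0.42). Ribonucleotide reductase, which makes deoxyribonucleotides, is built from a large subunit, RRM1, and a small subunit, RRM2. RRM2 had 62.4, 72.3 and 61 FPKM after reversine, 244, 242 and 219 FPKM after BafA1, 53, 69.2 and 67.8 FPKM after MG132 and 351, 324 and 312 FPKM in controls. RRM1 had 45.8, 32.9 and 27 FPKM after reversine, 58.8, 58.1 and 68.5 FPKM after BafA1, 54.5, 93 and 90.1 FPKM after MG132 and 74.1, 83.1 and 79 FPKM in controls. All reversine and MG132 libraries were below all controls for RRM2, while for RRM1 this held for the reversine libraries and for MG132 1. RRM2 fell by 2.32 ± 0.12 on the log2 scale (SE) after reversine (limma adjusted p 0.000108) and fell by 2.37 ± 0.12 after MG132 (1.05e-05). RRM1 fell by 1.17 ± 0.24 after reversine (limma adjusted p 0.0416) and differed by −0.03 ± 0.24 (SE; limma adjusted p 0.996) after MG132, where the GC and length correction called it lower (−0.68, limma adjusted p 0.0111). The direct difference of reversine from MG132 was −1.14 ± 0.24 (SE; limma adjusted p 0.0218) for RRM1. In MG132 1 RRM1 was below all controls and in MG132 2 and 3 above them, and the RRM1 call between reversine and MG132 was lost when reversine 1, BafA1 3, MG132 2 and MG132 3 were left out together (log2 difference −0.85, limma adjusted p 0.0948). In all it was lost under 7 of 15 alternatives, and the RRM1 call after reversine under 7 of 15.

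The ratio of RRM2 to RRM1 within a library, computed after the values of both genes were seen, was 1.36, 2.20 and 2.26 after reversine, 4.14, 4.17 and 3.2 after BafA1, 0.972, 0.744 and 0.753 after MG132 and 4.73, 3.89 and 3.96 in controls. Every reversine and MG132 library had a lower ratio than every control, MG132 1 included. An exact two-sided permutation test of the log2 ratio gave p = 0.1 for reversine and for MG132 against control, the smallest value that 3 libraries against 3 allow, and p = 0.6 for BafA1.

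TYMS had 54.9, 119.9 and 133 FPKM after reversine, 337, 297 and 178 FPKM after BafA1, 37.2, 22 and 24.4 FPKM after MG132 and 401, 339.8 and 317 FPKM in controls. TK1 had 26.9, 37.9 and 40.0 FPKM after reversine, 117, 119 and 129 FPKM after BafA1, 27.1, 23.8 and 21.8 FPKM after MG132 and 138, 147 and 139 FPKM in controls. TYMS, thymidylate synthase, makes dTMP from dUMP, and TK1 makes it from thymidine. All MG132 libraries were below all reversine libraries for TYMS, and for TK1 MG132 1 and reversine 1 were nearly level. TYMS fell by 1.86 ± 0.36 on the log2 scale (SE) after reversine (limma adjusted p 0.0336) and fell by 3.64 ± 0.36 after MG132 (0.000249). TK1 fell by 2.00 ± 0.15 on the log2 scale (SE) after reversine (limma adjusted p 0.000483) and fell by 2.50 ± 0.15 after MG132 (2.15e-05). The TYMS call after reversine was lost under 8 of 15 alternatives, and that of TK1 only in the fit of reversine and control alone (limma adjusted p 0.0772). DUT, the dUTPase, fell after MG132 (−2.14 ± 0.37 SE, limma adjusted p 0.00468) and was −1.56 ± 0.37 (SE; limma adjusted p 0.0735) after reversine.

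**Figure D4:**
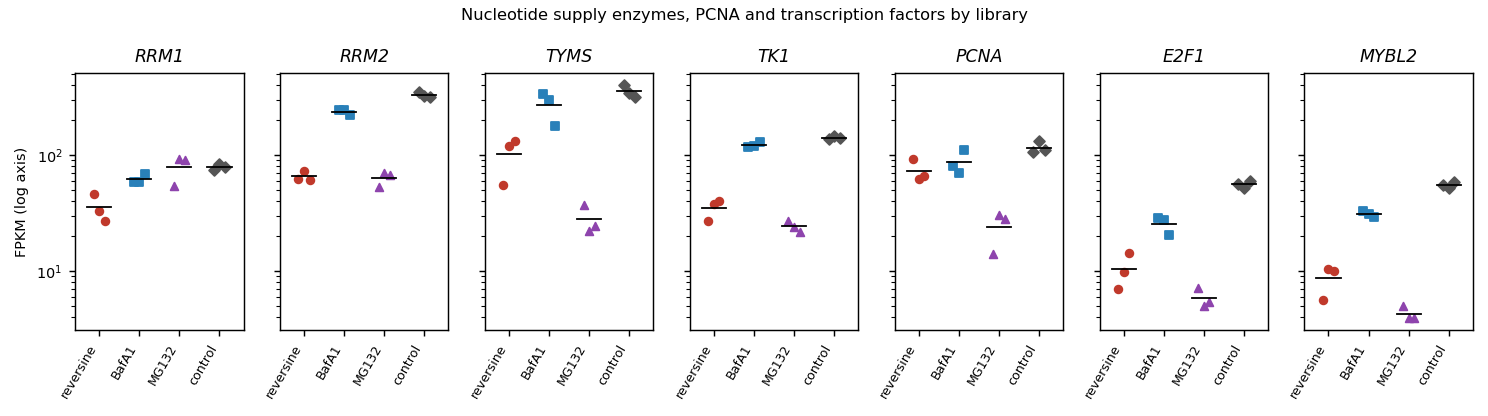
FPKM on a log axis for 4 nucleotide supply genes, PCNA, E2F1 and MYBL2, 1 point per library and a line at each group mean. RRM1 after MG132 spans the level of the controls while RRM2, TYMS and TK1 lie far below them; PCNA is lowest after MG132.

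All 5 genes of chromatin assembly and DNA methylation fell after reversine (median −1.71) and after MG132 (median −2.38), and BafA1 lay between (median −0.71, none called). CHAF1A and CHAF1B are subunits of the CAF-1 complex, which places histones on new DNA, and ASF1B hands histones to it. CHAF1A had 9.84, 10.0 and 9.52 FPKM after reversine, 22.1, 19.7 and 19.8 FPKM after BafA1, 9.24, 8.86 and 9.75 FPKM after MG132 and 32.2, 36.1 and 34.7 FPKM in controls. ASF1B had 10.9, 24.8 and 24.4 FPKM after reversine, 97.1, 92.5 and 59.7 FPKM after BafA1, 11.3, 8.1 and 5.62 FPKM after MG132 and 139, 111 and 125 FPKM in controls. CHAF1A fell by 1.71 ± 0.14 on the log2 scale (SE) after reversine (limma adjusted p 0.000543) and fell by 1.78 ± 0.14 after MG132 (6.30e-05). ASF1B fell by 2.66 ± 0.35 on the log2 scale (SE) after reversine (limma adjusted p 0.00484) and fell by 3.79 ± 0.35 after MG132 (0.000156). ASF1B had the largest log2 difference of the 52 genes after reversine. CHAF1B fell too, but control 3 stood at 59.5 FPKM against 30.4 and 21.4 FPKM in the other controls, and its call after reversine was lost under 8 of 15 alternatives.

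UHRF1 binds hemimethylated DNA behind the fork and brings in the maintenance methyltransferase DNMT1. UHRF1 had 17.7, 28.8 and 28.2 FPKM after reversine, 82.8, 81.6 and 57.8 FPKM after BafA1, 12.2, 8.11 and 7.94 FPKM after MG132 and 156, 128 and 162 FPKM in controls. DNMT1 had 21.2, 24.6 and 25.5 FPKM after reversine, 50.2, 48.5 and 44.4 FPKM after BafA1, 19.4, 15.6 and 14.4 FPKM after MG132 and 69.1, 65.4 and 67.4 FPKM in controls. The groups of UHRF1 followed each other without overlap in the order MG132, reversine, BafA1 and control, and so did those of DNMT1. UHRF1 fell by 2.55 ± 0.25 on the log2 scale (SE) after reversine (limma adjusted p 0.00117) and fell by 3.86 ± 0.25 after MG132 (2.56e-05). DNMT1 fell by 1.47 ± 0.14 on the log2 scale (SE) after reversine (limma adjusted p 0.00117) and fell by 1.98 ± 0.14 after MG132 (4.39e-05). UHRF1 averaged 6.35% of control after MG132, the lowest share of the 52 genes there. After BafA1 UHRF1 was at 49.9% of control, with −1.0 ± 0.25 (SE; limma adjusted p 0.251), not called, and CHAF1A at 59.8%, with −0.71 ± 0.14 (SE; limma adjusted p 0.104); CHAF1A was called after BafA1 with a pseudocount of 0.1 (limma adjusted p 0.0346) or with gene-by-gene library weights (0.0152).

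The 3 transcription factors fell after reversine (median −2.38) and after MG132 (median −3.07). E2F1 and E2F2 activate genes of the G1/S transition, and MYBL2 (B-MYB) works with the MuvB complex on later cell cycle genes. E2F1 had 6.97, 9.8 and 14.2 FPKM after reversine, 28.5, 27.3 and 20.5 FPKM after BafA1, 7.16, 4.95 and 5.45 FPKM after MG132 and 56.5, 51.7 and 59.9 FPKM in controls. MYBL2 had 5.63, 10.4 and 9.96 FPKM after reversine, 33.2, 31.2 and 29.3 FPKM after BafA1, 4.95, 3.95 and 3.92 FPKM after MG132 and 54.9, 52.4 and 58.6 FPKM in controls. E2F2 had 0.67, 0.98 and 1.27 FPKM after reversine, 1.96, 1.68 and 2.15 FPKM after BafA1, 0.49, 0.52 and 0.58 FPKM after MG132 and 3.17, 2.91 and 3.03 FPKM in controls. In all 3 genes every MG132 library was below every reversine library except for E2F1, where 7.16 FPKM in MG132 1 exceeded 6.97 FPKM in reversine 1. E2F1 fell by 2.38 ± 0.25 on the log2 scale (SE) after reversine (limma adjusted p 0.00191) and fell by 3.07 ± 0.25 after MG132 (9.49e-05). MYBL2 fell by 2.58 ± 0.22 on the log2 scale (SE) after reversine (limma adjusted p 0.000649) and fell by 3.42 ± 0.22 after MG132 (2.57e-05). E2F2 fell by 1.04 ± 0.11 on the log2 scale (SE) after reversine (limma adjusted p 0.00205) and fell by 1.40 ± 0.11 after MG132 (8.49e-05). BafA1 libraries lay below all controls for the 3 genes, at 45.4% of control for E2F1, 56.4% for MYBL2 and 63.6% for E2F2, without a call (0.204 to 0.344, limma adjusted p). E2F1 was called after BafA1 with the correction for GC content and length (0.0147) or with gene-by-gene library weights (0.0314).

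Reversine and MG132 were also compared with each other directly. Of the 52 genes, 8 were higher after reversine (3.52% of all genes tested) and 1, RRM1, was lower (2.99% of all), and 43 did not pass; the median log2 difference was 0.25, against −0.01 over all genes. The genes higher after reversine were MCM2, MCM3, MCM4, MCM6, PCNA, LIG1, TYMS and UHRF1. Their differences ran from 0.59 for MCM4 to 1.78 for TYMS, with no overlap of the libraries, which a call on the same libraries makes likely. The call held under only 7 of 15 alternatives for MCM4, 10 of 15 for TYMS and 8 of 14 for UHRF1. It held under 13 of 15 for LIG1 and under 14 of 15 for each of MCM2, MCM3, MCM6 and PCNA. Of the 52 genes, 12 lay wholly above after reversine, against 7.71% of all genes tested, and 6 wholly below, against 14.7%. MCM3 differed by 1.06 ± 0.11 (SE; limma adjusted p 0.000475) and MCM6 by 1.38 ± 0.21 (SE; limma adjusted p 0.00463). In the reported fit RRM2 was at 0.05 (95% interval −0.23 to 0.32) and CHAF1A at 0.07 (−0.24 to 0.38). Over the alternatives RRM2 ran from −0.07 to 0.48, beyond that interval, and CHAF1A from 0.0008 to 0.35. TIMELESS and POLE were also near 0 but had larger SEs. CDT1 had the lowest difference, −1.18, without a call (limma adjusted p 0.0916). With 2 groups alone none of the 52 was called (0.834% of all genes). The count was 5 without reversine 2, without reversine 3 or without MG132 2, where 3.3%, 3.57% and 3.14% of all genes were called. It was 17 without reversine 1, where 8.65% of all genes were called. Without MG132 1 it was 23, which is 44.2% of the 52 and fewer than the 55.7% called among all genes. Without the 4 libraries named for their GC trend, which left MG132 1 as the only MG132 library, the median log2 difference was 0.43. Exposure and collection times differ between the treatments, so dose and time cannot be told apart from the agent.

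**Figure D5:**
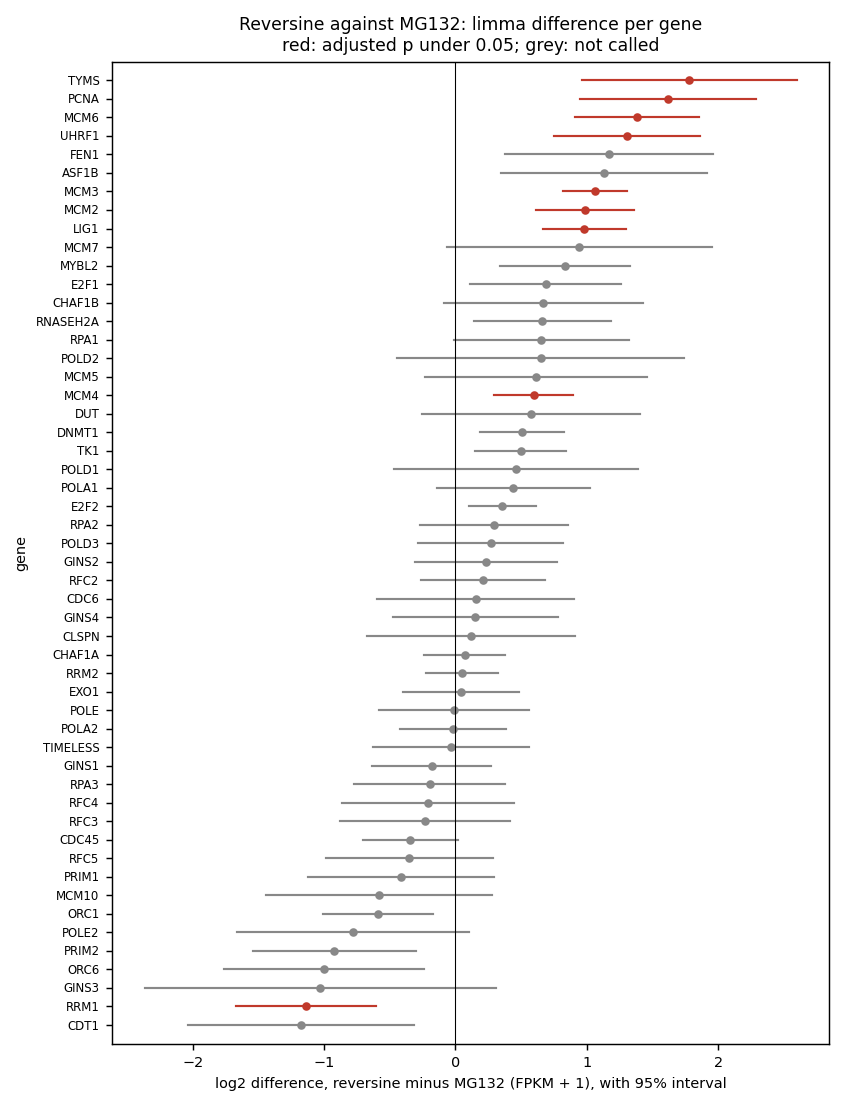
Log2 difference of reversine minus MG132 for each gene with its 95% interval, ordered by size; positive values are higher after reversine. The 8 genes called higher lie between 0.59 and 1.78, and RRM1 is the only gene called lower, at −1.14.

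Against BafA1, all 52 genes were lower after reversine, 17 of them called (0.785% of all genes tested were called lower and 0.443% higher). Their median was −1.0 against −0.14 over all genes. A difference below 0 was also found for 22365 of the 30712 genes tested. RRM2 differed by −1.83 ± 0.12 (SE; limma adjusted p 0.000296), MCM3 by −1.34 ± 0.11 (SE; limma adjusted p 0.000579) and TK1 by −1.79 ± 0.15 (SE; limma adjusted p 0.000786). The count was 0 with these 2 groups alone, 9 under median-ratio scaling, 8 without BafA1 1 and 10 without BafA1 2. Of all genes, 0.00651%, 0.707%, 0.462% and 0.544% were called in these fits. After MG132, 31 genes were lower than after BafA1 and none higher (6.37% of all genes tested were called lower and 4.49% higher; median −1.11 against −0.05 over all genes). UHRF1 differed by −2.85 ± 0.25 (SE; limma adjusted p 0.000123) and MCM3 by −2.41 ± 0.11 (SE; limma adjusted p 4.27e-06) in that comparison.

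Other genes of the same processes were counted from 5 further lists of 82 genes, 81 of them with a row and 80 tested. After reversine 17 were lower and none higher, with a median of −0.56. Among all genes tested 1.29% were called lower and 0.801% higher. After MG132 31 were lower and 3 higher, with a median of −0.59, against 7.67% lower and 7.14% higher among all genes. After BafA1 none was called, with a median of −0.14, against 0.0619% lower and 0.202% higher among all genes. Of 24 other replication factors 5 fell after reversine and 7 after MG132, with ORC3 higher after MG132; TICRR, which helps to fire origins, was at −1.26 ± 0.16 (SE; limma adjusted p 0.00381) after reversine, and MCMBP, an MCM-binding protein, at −1.54 ± 0.16 (SE; limma adjusted p 0.000352) after MG132. Of 16 other nucleotide enzymes 3 fell after reversine and 9 after MG132, among them IMPDH2 of guanine nucleotide synthesis (−2.10 ± 0.15 SE, limma adjusted p 4.65e-05 after MG132). Of 14 other chromatin factors 3 fell after reversine and 4 after MG132; SSRP1, a subunit of the histone chaperone FACT, was at −1.24 ± 0.10 (SE; limma adjusted p 0.000543) after reversine and −1.65 ± 0.10 (SE; limma adjusted p 2.11e-05) after MG132.

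Of 14 E2F, RB and MuvB regulators with a row, 1 fell after reversine and 3 after MG132, with 2 higher after MG132. TFDP1, the usual dimer partner of E2F proteins, fell (−1.24 ± 0.11 SE, limma adjusted p 0.000953 after reversine and −1.91 ± 0.11 SE, limma adjusted p 2.04e-05 after MG132). Its relative TFDP2 was higher after MG132 (1.90 ± 0.30 SE, limma adjusted p 0.00332), and so was E2F7, a repressor of E2F targets (1.75 ± 0.40 SE, limma adjusted p 0.0176). ORC3 and E2F7 are named because few genes rose, a choice made after their values were seen. Of 12 G1/S cyclins and kinases 5 fell after reversine and 8 after MG132. CDK2, the kinase partner of cyclins E and A, was at −1.58 ± 0.15 (SE; limma adjusted p 0.00112) after reversine and −2.44 ± 0.15 (SE; limma adjusted p 2.11e-05) after MG132, and CDC25A, the phosphatase that activates it, at −1.61 ± 0.19 (SE; limma adjusted p 0.00333) and −1.73 ± 0.19 (SE; limma adjusted p 0.000491).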

How the data were processed

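Reads were 50 nt from oligo(dT)-selected TruSeq libraries with inserts of 150 to 350 nt, per the labels' protocols. Bowtie 1.0.0, RSEM 1.2.6 and hg19 (GRCh37) are named in the submitters' processing notes. The deposited table names no unit; its values were taken as FPKM, computed by the authors, because column totals differ between libraries. They were used without further scaling. Genes reaching 1 FPKM in 3 or more libraries (30712, all 52 described genes included) were tested with limma 3.58.1 in R 4.3.3 (trend method) on log2(FPKM + 1), in one fit of the 4 groups without covariates (8 residual and 1.26 prior degrees of freedom), for 6 comparisons. Fold changes on that scale understate low genes. The fit was tested on simulated data, by a criterion that was loosened once after a stricter one failed; it made few false calls but recovered only part of the seeded changes, large ones included, so a gene that was not called is not shown to be unchanged. Replicate numbers follow record order and pair nothing.

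The described genes, the lists and the libraries left out for GC content were chosen with earlier results of these data known. Values per library are given for 28 fixed genes, for the lowest and highest difference after reversine in each role group and for up to 10 genes with the smallest adjusted p after BafA1 or MG132. Of other pathway genes only log2 differences are given, for genes among the 2 with the smallest adjusted p per list and comparison, E2F7 excepted. Promoter windows and transcript GC content (82.5% of tested genes had one) come from RefSeq and GENCODE v29, both on GRCh38, and no coordinates of the authors' build were used. Strand settings of the counting are not given in the sources used here, so overlapping and antisense genes cannot be told apart. Alternatives were a pseudocount of 0.1, no filter, a filter of 5 FPKM, median-ratio scaling, a GC and length correction (splines of 5 degrees of freedom), the fit without 4 libraries, a fit of 2 groups, library weights and each library left out. Gene-by-gene library weights were added after the default weights (REML) did not converge, and both are given.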

Additional observations from a re-analysis of the deposited data

How the results depend on the processing

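Over most alternatives, the number of the 52 genes called in reversine against control stayed within 1.5 times the reported 31. The exceptions were 51 with default and 47 with gene-by-gene library weights, where 10.0% and 7.82% of all genes were called. Further exceptions were 1 in the fit of 2 groups (0.0358% of all genes), 20 without control 1 and 19 without control 3. Leaving out 1 library gave 19 to 28. In BafA1 against control, where none was called, a pseudocount of 0.1 gave 1, the GC and length correction 1 and library weights 14 (default) or 10 (gene by gene), and leaving out 1 library gave 0 to 0. In MG132 against control (38 called) the other alternatives gave 32 to 44 and leaving out 1 library 31 to 40. The share called among all genes moved more, from 14.8% as reported to 49.9% with default and 68.1% with gene-by-gene library weights. Without MG132 1 it was 42.5%. The shares of the 52 called in these 3 fits were 71.2%, 82.7% and 76.9%. In reversine against MG132 (9 called) the count was 5 without reversine 1, BafA1 3, MG132 2 and MG132 3, 20 with default and 33 with gene-by-gene library weights (38.5% and 63.5% of the 52, below the 44.4% and 70.4% called among all genes), 0 in the fit of 2 groups and 5 to 23 with 1 library left out. In reversine against BafA1 (17 called) it was 9 under median-ratio scaling, 0 in the fit of 2 groups and 8 to 16 with 1 library left out. With default and gene-by-gene library weights it was 44 and 42, where 8.54% and 6.99% of all genes were called. In MG132 against BafA1 (31 called) it ran from 23 to 43, and 26 to 36 with 1 library left out. The 43, with gene-by-gene library weights, were 38 lower and 5 higher, where 70.6% of all genes were called. The 36, without MG132 1, were 34 lower and 2 higher, where 60.1% of all genes were called. No gene changed sign where it was called in either fit. Uncalled signs changed under some alternative for 6 genes in BafA1 against control and 5 in MG132 against control. They changed for 15 genes in reversine against MG132 and 9 in MG132 against BafA1. None changed in reversine against control or in reversine against BafA1. Median-ratio scaling moved the median of all genes in reversine against MG132 to 0.235, against −0.00757 as reported, and the share of lower among all calls to 21.6%, against 45.9%; in MG132 against control that share was 71.7%, against 51.8%. The default library weights (REML) stopped before converging and left MG132 3 with a weight of 1.49e-14; the gene-by-gene weights, chosen after seeing this, gave MG132 1 the lowest, 0.109. The causes of these changes were not tested. A group left with 1 library is assumed to vary like the others. Read depth is unknown, so its effect on low genes cannot be bounded. No paired analysis was possible because the labels give the libraries no replicate numbers shared between groups.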
